A study of Mus musculus with 8 samples.

Results

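The miR-23/27/24 miRNAs come from a pair of paralogous gene clusters, miR-23a/27a/24-2 and miR-23b/27b/24-1. The 9 mature miRNAs described here were taken by name from the 1978 mouse miRNAs of the deposited table. They are 5 guides (mmu-miR-23a-3p, mmu-miR-23b-3p, mmu-miR-27a-3p, mmu-miR-27b-3p and mmu-miR-24-3p) and 4 passenger arms (mmu-miR-23a-5p, mmu-miR-27a-5p, mmu-miR-27b-5p and mmu-miR-24-2-5p). The RNA sequenced was small RNA of 3A cells, a line of murine hepatocytes, and from the extracellular vesicles (EVs) that were pelleted by ultracentrifugation from medium conditioned by these cells for 72 h in EV-depleted serum. Cell shCTR and EV shCTR came from cells that carried a scrambled shRNA, and cell shPCBP2 and EV shPCBP2 from cells that carried an shRNA against PCBP2, an RNA-binding protein. Both shRNAs were delivered with a retroviral vector and kept under puromycin selection, so that all cells share the vector and the drug, and each condition had 2 libraries.

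Each cluster is transcribed as a single primary transcript from which 3 hairpins are cut. One strand of a hairpin, the guide, is retained by an Argonaute protein and pairs with target mRNAs through its seed, while the other strand, the passenger, is mostly degraded. In the liver, miRNAs of the miR-23b cluster are known repressors of Smad proteins of the TGF-β pathway. Elsewhere miR-27 is known to repress PPARγ, a regulator of lipid metabolism, miR-23 glutaminase, and miR-24 the cell cycle genes MYC and E2F2.

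Mature sequences were found in RefSeq (GRCm38.p6) for 8 of the 9 members, and mmu-miR-23b-3p was not among them. The guides are shown first because the results turn on them, with the seed (bases 2 to 8) in capitals.
mmu-miR-23a-3p: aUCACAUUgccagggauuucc
mmu-miR-27a-3p: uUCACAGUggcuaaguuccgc
mmu-miR-27b-3p: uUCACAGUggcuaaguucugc
mmu-miR-24-3p: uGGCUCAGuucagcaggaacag
The miR-27 guides share a seed and differ by 1 of 21 bases, C19U from miR-27a-3p to miR-27b-3p, counted from the 5′ end. Reads of miR-27a-3p and miR-27b-3p can therefore be exchanged by an error at this base, and the sources used here do not say how reads matching several miRNAs were counted.

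The passenger arms are shown because they were read very differently in cells and EVs.
mmu-miR-23a-5p: gGGGUUCCuggggaugggauuu
mmu-miR-27a-5p: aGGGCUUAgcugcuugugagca
mmu-miR-27b-5p: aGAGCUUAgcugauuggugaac
mmu-miR-24-2-5p: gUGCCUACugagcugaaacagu
The passengers of the miR-27 hairpins have different seeds, GGGCUUA in miR-27a-5p and GAGCUUA in miR-27b-5p, although their guides share one.

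In GRCm38.p6 the hairpins of the miR-23a cluster lie at chr8:84208518-84208921 on the plus strand, within 404 bases. Mir23a and Mir27a overlap no other gene of GENCODE M21, and Mir24-2 lies in an exon of the long noncoding RNA Gm26532. Those of the miR-23b cluster lie at chr13:63300484-63301275 on the plus strand, within 792 bases. They overlap the protein-coding gene 2010111I01Rik, which is read from the same strand, and Fancc, which is read from the other. Mir23b is intronic, and Mir27b and Mir24-1 overlap an annotated exon of 2010111I01Rik. The mature miR-24-3p is identical from Mir24-2 and Mir24-1, so its reads cannot be assigned to a cluster, whereas mmu-miR-24-2-5p belongs to the miR-23a cluster.

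Total counts ranged from 26391248 to 38166798 reads per library. Mouse miRNAs held 8745848 to 12732173 of them in cells and 503070 to 687592 in EVs, and the spike-in cel-miR-39-3p held the rest. Levels are therefore given as spike-in RPM, the reads of a miRNA per 1000000 spike-in reads. On this scale a difference between EVs and cells also depends on how much material was extracted on each side. By these counts fewer EVs cannot be told apart from less miRNA in each. The study counted EVs per cell separately and reports no effect of PCBP2 silencing on EV production. EV libraries also held miRNAs of other cells. The erythroid miR-451a and miR-144-3p and the leukocyte miR-142a-3p had 0 reads in all cell libraries, and EV libraries held 3595 to 4430, 135 to 314 and 1117 to 2157 reads of them. The 4 erythroid and serum markers summed to 0.00135 to 0.00317% of mouse miRNA reads in cells and 9.63 to 11.5% in EVs, and the 3 leukocyte markers to 0.000111 to 0.000707% and 1.37 to 1.69%. The 2 endothelial markers, the arms of miR-126a, summed to 0.0174 to 0.0228% in cells and 0.489 to 0.88% in EVs. Their part in the results on EVs was not tested. The hepatocyte miRNA miR-122-5p was low in the cells labelled as hepatocytes, with 356 to 485 reads or 0.00357 to 0.00415% of mouse miRNA reads, whereas miR-194-5p, also of the hepatocyte list, had 218474 to 342726 reads.

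The members were abundant in cells. Together they took 16.8 to 18.2% of the mouse miRNA reads of a cell library and 6.97 to 8.04% of those of an EV library, so the ranges did not overlap. Nearly all of these reads were guides.

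miR-24-3p was the most abundant member in cells. In cells its level was 49830 and 49320 spike-in RPM with shCTR, and 42660 and 58850 with shPCBP2. In EVs it was 458.5 and 460.6 with shCTR, and 411.7 and 438.7 with shPCBP2. It was the second most read miRNA of all in every cell library, and between position 10 and 14 in EVs.

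miR-27a-3p followed in cells. In cells it stood at 25080 and 24260 spike-in RPM with shCTR, and at 18560 and 27350 with shPCBP2. In EVs it stood at 242.8 and 188.2 with shCTR, and at 107.9 and 189.3 with shPCBP2, the widest log2 spread between replicates of any guide in EVs. miR-27b-3p stood at 15730 and 17740, then 10030 and 14510 in cells, and at 124.1 and 100.6, then 71.51 and 53.24 in EVs, in the same order of conditions. It was the lowest guide in every EV library.

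miR-23a-3p was the most abundant member in EVs. Cells held 16400 and 18180 spike-in RPM of it with shCTR, and 10630 and 16170 with shPCBP2. EVs held 601.9 and 562.4 with shCTR, and 431.1 and 468.9 with shPCBP2. miR-23b-3p, its paralog, was at 12940 and 14060, then 7325 and 11220 in cells, and at 298.6 and 287.8, then 187.4 and 179.3 in EVs. Of the 5 guides, 4 (not miR-27a-3p) lay lower in both EV shPCBP2 libraries than in both EV shCTR libraries, as did 42.2% of all tested miRNAs on this scale.

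Within each library the order of read counts was nearly fixed. In all 4 cell libraries it was miR-24-3p, miR-27a-3p, miR-23a-3p, miR-27b-3p and miR-23b-3p, with miR-23a-3p only 1.02 to 1.11 times miR-27b-3p, so that the levels of these neighbours overlapped between libraries. In EVs the order was miR-23a-3p, miR-24-3p, miR-23b-3p, miR-27a-3p and miR-27b-3p, except that miR-23b-3p was 0.947 times miR-27a-3p in 1 of the 4 libraries. miR-23a-3p was 1.05 to 1.31 times miR-24-3p in EVs. Ligation and amplification differ between miRNAs, so these orders describe reads and not molecules.

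**Figure D1:**
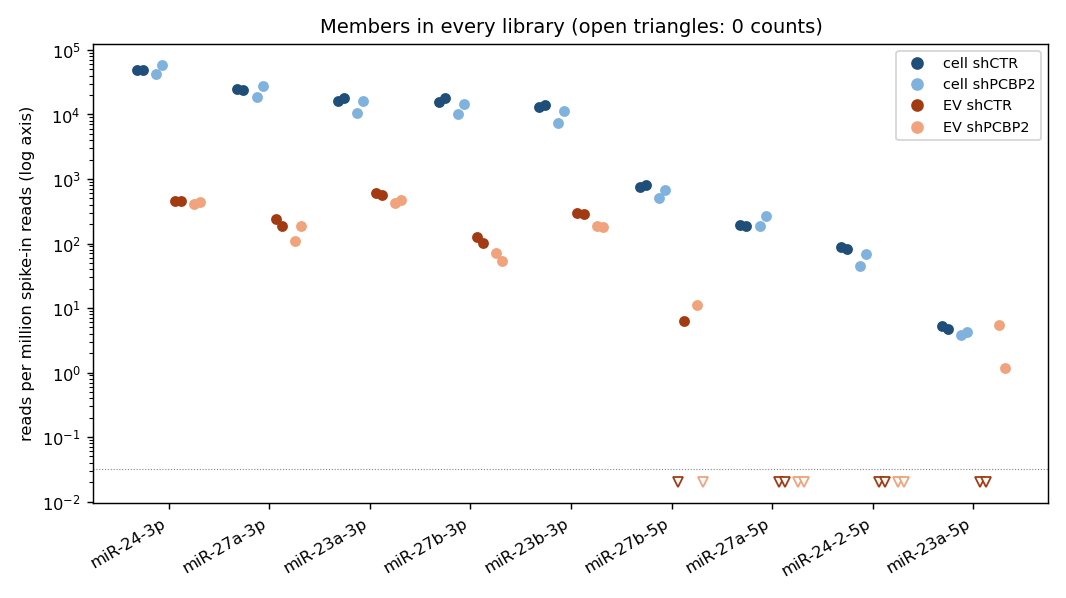
Level of the 9 members in every library, in spike-in RPM on a log axis, with 1 point per library and open triangles for 0 counts. The guides lie far lower in EVs than in cells, least so for miR-23a-3p (431.1 to 601.9 in EVs against 10630 to 18180 in cells), and miR-27a-5p and miR-24-2-5p have no EV reads.

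All 5 guides were lower in EVs than in cells relative to the spike-in, but to unequal degrees. The comparison used edgeR's quasi-likelihood test over 180 miRNAs with at least 1 read in 2 cell and 2 EV libraries, which kept 7 of the 9 members and left out miR-27a-5p and miR-24-2-5p. A log2 ratio was called at a Benjamini-Hochberg adjusted p under 0.05. In shCTR the 5 guides and miR-23a-5p were called lower, where 59.4% of all tested miRNAs were, and in shPCBP2 the 5 guides, where 60.0% were. The ratio thus says little of the members as a group, and their differences lie in its size.

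miR-23a-3p was 29.7-fold lower in EV shCTR than in cell shCTR (log2 ratio -4.89 ± 0.26, SE) and miR-23b-3p 46.0-fold lower (-5.52 ± 0.26). miR-24-3p was 108-fold lower (-6.75 ± 0.22), miR-27a-3p 114-fold lower (-6.84 ± 0.41) and miR-27b-3p 149-fold lower (-7.22 ± 0.33). In edgeR's quasi-likelihood test the Benjamini-Hochberg adjusted p of these ratios ran from 4.16e-06 for miR-24-3p to 1.47e-05 for miR-27a-3p. In shPCBP2 the order was the same, with miR-23a-3p 29.8-fold, miR-23b-3p 50.6-fold, miR-24-3p 119-fold, miR-27a-3p 154-fold and miR-27b-3p 197-fold lower.

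The median log2 ratio of all tested miRNAs was -4.93 in shCTR and -4.90 in shPCBP2. In shCTR miR-23a-3p lay 0.04 above that median, miR-23b-3p 0.59 below it, miR-24-3p 1.82 below, miR-27a-3p 1.91 below and miR-27b-3p 2.29 below, on the log2 scale. Only 7.22% of tested miRNAs had a lower ratio than miR-27b-3p in shCTR, 13.3% a lower one than miR-27a-3p and 15.0% a lower one than miR-24-3p, while 50.6% had a lower one than miR-23a-3p. When libraries were scaled to their mouse miRNA total instead of the spike-in, miR-23a-3p had a log2 ratio of 0.10 in shCTR (adjusted p = 0.439) and 0.30 in shPCBP2 (adjusted p = 0.027), which turns its direction. With TMM factors and median-of-ratios size factors it was at -0.12 and -0.11 in shCTR (adjusted p = 0.482 and 0.581) and at -0.32 and -0.11 in shPCBP2 (adjusted p = 0.0695 and 0.583), so that its call as lower in EVs was held by the spike-in scaling alone. The other 4 guides were called lower in EVs under every scaling tried, with much smaller ratios. Scaled to the mouse total, the log2 ratio in shCTR was -0.53 for miR-23b-3p, -1.76 for miR-24-3p, -1.86 for miR-27a-3p and -2.24 for miR-27b-3p, and with TMM factors it was -0.76, -1.98, -2.08 and -2.45. The mouse total also moved the calls over all tested miRNAs in shCTR from 107 lower and 12 higher to 32 lower and 43 higher. Other abundant clusters are given for comparison. The tested guides of the miR-17-92 cluster had log2 ratios of -5.53 to -2.82 in shCTR, those of the miR-106b-25 cluster -6.05 to -4.31, and those of the miR-23/27/24 clusters -7.22 to -4.89. The range of the miR-17-92 cluster leaves out miR-19a-3p and miR-19b-3p, which did not pass the filter. They were read in EVs only in EV shCTR replicate 1, with 92 and 59 counts.

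**Figure D2:**
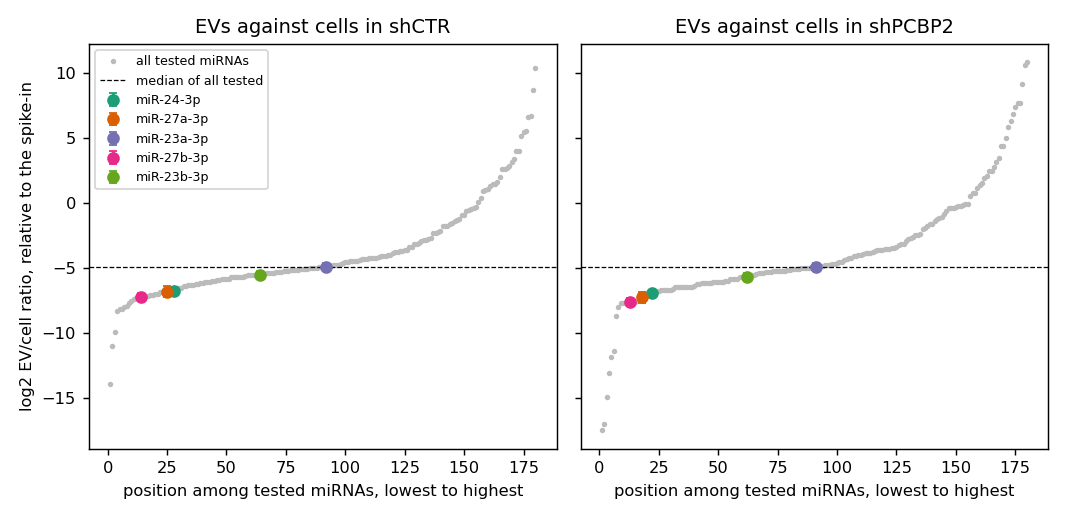
log2 ratio of EVs to cells relative to the spike-in for all 180 tested miRNAs in order (grey), with the 5 guides in colour and bars of 1 SE, in shCTR (left) and shPCBP2 (right), and the median of all tested miRNAs as a dashed line. miR-23a-3p sits at the median in both, and miR-24-3p, miR-27a-3p and miR-27b-3p lie 1.82 to 2.29 below it in shCTR on the log2 scale.

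Guides of the same cluster are cut from 1 transcript, so their ratios within a library were compared, a measure that needs neither spike-in nor depth. miR-23 exceeded miR-27 in EVs and the opposite held in cells. The summed miR-23 guides were 2.45, 2.94, 3.45 and 2.67 times the summed miR-27 guides in the EV libraries (shCTR, then shPCBP2), and 0.719, 0.768, 0.628 and 0.654 times in the cell libraries. The ratio was 4.14-fold higher in EVs (log2 difference 2.05), and a two-sided exact permutation test of 4 EV against 4 cell libraries gave p = 0.0286, the smallest that 70 arrangements allow, or 0.04 after Benjamini-Hochberg adjustment over 7 ratios.

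The same held in each cluster. miR-23a-3p was 2.48 to 4.00 times miR-27a-3p in EVs and 0.573 to 0.749 times in cells, a 4.58-fold difference. miR-23b-3p was 2.41 to 3.37 times miR-27b-3p in EVs and 0.73 to 0.823 times in cells, a 3.58-fold difference. Both had an adjusted p of 0.04 in the exact permutation test. Within the shRNAs the log2 difference for the summed guides was 1.86 in shCTR and 2.24 in shPCBP2.

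miR-23 also exceeded miR-24-3p in EVs, at 1.48 to 1.96 times, and was below it in cells, at 0.421 to 0.654 times (3.21-fold difference, adjusted p = 0.04, exact permutation test). miR-23a-3p was 1.95 to 2.62 times miR-23b-3p in EVs and 1.27 to 1.45 times in cells (1.62-fold, adjusted p = 0.04 in the same exact test). The sequence of miR-23b-3p was not found, so an exchange of reads between these guides was not assessed. The remaining 2 ratios did not pass. The summed miR-27 guides were 0.436 to 0.8 times miR-24-3p in EVs and 0.67 to 0.852 times in cells (adjusted p = 0.133, exact permutation test), and miR-27a-3p was 1.51 to 3.56 times miR-27b-3p in EVs and 1.37 to 1.88 times in cells (adjusted p = 0.314, exact permutation test). The permutation test shuffled all 8 libraries without keeping shCTR and shPCBP2 apart. EV and cell libraries of a culture are related samples, and p-values measure only the spread between these 8 libraries. The ratios with an adjusted p of 0.04 had p = 0.125 in an exact sign-flip test of 4 pairs by replicate number, its smallest value.

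**Figure D3:**
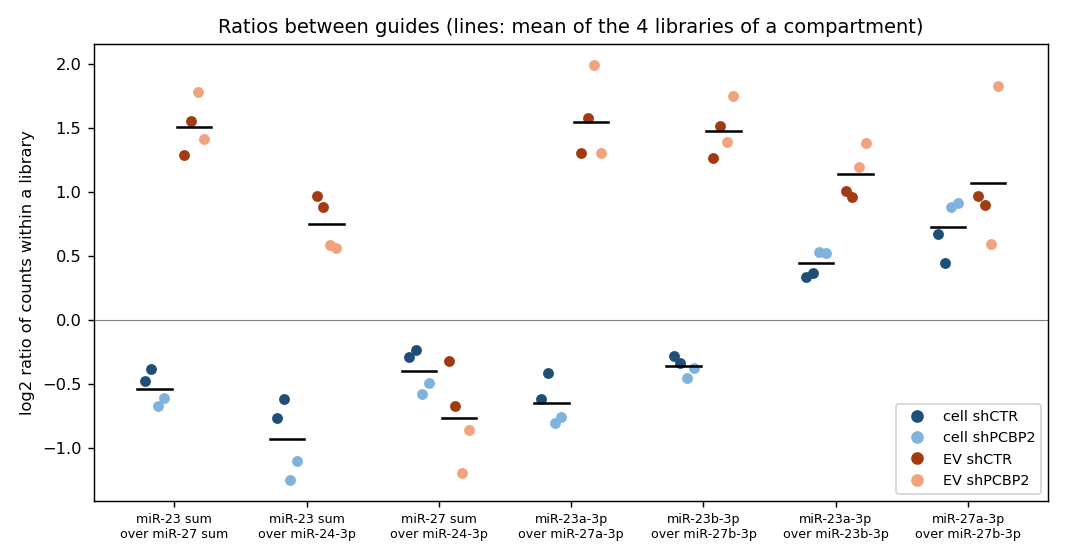
log2 ratio of the read counts of guides within each library, 1 point per library, with a line at the mean of the 4 cell (left) and 4 EV (right) libraries of each pair. The ratios of miR-23 to miR-27 and to miR-24-3p are below 0 in all cell libraries and above 0 in all EV libraries, while the last pair overlaps.

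The question of the design was whether silencing of PCBP2 changed the EV/cell ratio. None of the 7 tested members was called for this change in edgeR's quasi-likelihood test, against 2.22% of all tested miRNAs. At an unadjusted p under 0.05 there was 1 of 7, against 9.44%, and DESeq2 called 1, against 7.78%. Both were miR-23a-5p, which had reads in enough EV libraries to be tested only through EV shPCBP2, where it was high, so these counts support nothing. The change in the guides was small. It was -0.00 ± 0.31 (log2, SE) for miR-23a-3p, -0.14 ± 0.30 for miR-23b-3p, -0.15 ± 0.25 for miR-24-3p, -0.40 ± 0.35 for miR-27b-3p and -0.43 ± 0.45 for miR-27a-3p, and the median of all tested miRNAs was -0.08. The 95% interval of miR-23a-3p ran from -0.75 to 0.74 and that of miR-27a-3p from -1.54 to 0.67, so changes of up to about these sizes are not excluded at this depth and number of libraries.

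In EVs, the guides had log2 changes from -0.85 to -0.11 in shPCBP2 against shCTR, around the -0.54 of the median tested miRNA. None was called lower, against 5.56% of all tested miRNAs. The lowest was miR-27b-3p at -0.85 ± 0.25 (adjusted p = 0.142 by edgeR's quasi-likelihood test), followed by miR-23b-3p at -0.68 ± 0.22 (adjusted p = 0.172). These are the guides of the miR-23b cluster. DESeq2 called both, as it did 13.3% of all tested miRNAs in this direction, with an adjusted p of 0.0127 for miR-27b-3p and 0.024 for miR-23b-3p. The edgeR test with TMM factors also called both (0.0322 and 0.035), among 12 of 180 tested miRNAs in this direction. Over the alternative fits run, the log2 change of miR-23b-3p in EVs ran from -0.71 to -0.20. The guides of the miR-23a cluster stood at -0.37 ± 0.22 for miR-23a-3p and -0.54 ± 0.32 for miR-27a-3p, and miR-24-3p at -0.11 ± 0.17. With scaling to the mouse miRNA total, the EV changes of miR-23a-3p and miR-24-3p turned to 0.10 and 0.36, with adjusted p of 0.746 and 0.0992.

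In cells, no member and none of the 180 tested miRNAs was called by edgeR's quasi-likelihood test, and DESeq2 called 18 miRNAs (10.0%) of which 0 were members. At an unadjusted p under 0.05 there was 1 of 7 members, miR-23b-3p (-0.54 ± 0.22, adjusted p = 0.342), against 13.9% of all tested miRNAs. In spike-in RPM 5 of 7 members (not miR-24-3p or miR-27a-3p) lay lower in both cell shPCBP2 libraries than in both cell shCTR libraries, against 66.7% of all tested miRNAs. miR-24-3p was at 0.03 ± 0.17, 0.53 above the median of all tested miRNAs, which was -0.49. As a share of mouse miRNA reads miR-24-3p took 6.98 and 6.63% in cell shCTR and 8.61 and 8.30% in cell shPCBP2, without overlap. On this scale 2 of 7 members, the other being miR-27a-3p, were higher without overlap, against 13.9% of all tested miRNAs, and an exact permutation test of 2 against 2 libraries cannot go below a two-sided p of 0.333.

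Passenger arms were minor in cells. miR-27b-5p was the strongest, with 13195 and 12866 counts in cell shCTR and 8886 and 11909 in cell shPCBP2, or 4.49, 4.41, 4.78 and 4.40% of the reads of both arms. miR-27a-5p had 3476 and 2941 counts in cell shCTR and 3310 and 4787 in cell shPCBP2, or 0.772, 0.765, 1.00 and 0.973%. miR-24-2-5p had 1588 and 1278, then 784 and 1235 counts, or 0.179, 0.164, 0.104 and 0.118% of itself and miR-24-3p, and miR-23a-5p had 95 and 75, then 68 and 77 counts, or 0.0325, 0.0262, 0.0363 and 0.0267%.

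The shares of miR-27a-5p were higher and those of miR-24-2-5p lower in both cell shPCBP2 libraries than in both cell shCTR libraries, and the exact 95% binomial intervals of the groups did not overlap. Such a separation was common, since 46.8% of 77 minor arms with at least 20 counts in every cell library had shares that did not overlap between the shRNAs. These passengers are cut from the same transcript. The shares of miR-27b-5p and miR-23a-5p overlapped between the shRNAs. With 2 libraries per condition an exact permutation test cannot reach the threshold, and no other test of the shares was run. The intervals cover counting error only, since reads were not collapsed to molecules by identifiers.

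In EVs the passengers were either unread or read in some libraries only. miR-27a-5p and miR-24-2-5p had 0 counts in all 4 EV libraries. At their share in cells, 35.5 to 59.0 reads of miR-27a-5p and 16.9 to 21.8 of miR-24-2-5p would be read per EV library. The upper limits of the exact 95% intervals of these zeros were 0.0547 to 0.091% for miR-27a-5p, below its lowest share in cells of 0.765%, and 0.0239 to 0.0308% for miR-24-2-5p, below its 0.104%, for counting error only. Set against a floor of 3 counts per library and relative to the spike-in, miR-27a-5p was at least 1710-fold lower in EVs than in cells in shCTR and at least 2560-fold lower in shPCBP2, and miR-24-2-5p at least 763-fold and 637-fold lower. The floor does not cover the spread between EV replicates, such as the 0 and 162 counts of miR-27b-5p in EV shCTR. Fold values set against it are thus not limits for further libraries.

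miR-27b-5p had 0 and 162 counts in the EV libraries of shCTR and 419 and 0 in those of shPCBP2, where 72.8 to 155 would be read at the cell share. Its share was thus 0, 5.83, 13.5 and 0% of both arms, on either side of the 4.40 to 4.78% of cells. The edgeR log2 ratio of EVs to cells was -7.97 ± 3.42 in shCTR (adjusted p = 0.0802) and -6.71 ± 3.23 in shPCBP2 (adjusted p = 0.108), neither of which was called by edgeR. DESeq2 called both lower (adjusted p = 0.00374 and 0.0148), as it did 131 of 180 tested miRNAs in shCTR and 126 in shPCBP2.

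miR-23a-5p, the passenger of the guide that was highest in EVs, had no reads in either EV shCTR library, but 205 and 36 counts in EV shPCBP2. The reads in EV shPCBP2 were 1.25 and 0.252% of both arms, above the 0.0262 to 0.0363% of cells, and 4.27 to 4.99 reads per EV library would be read at the cell share. It met the filter on reads only through EV shPCBP2, where it was high, so its p in that test is not independent of the filter. In the filtered table it was called higher in EV shPCBP2 than in EV shCTR (adjusted p = 0.0372, edgeR's quasi-likelihood test), and over all miRNAs without the filter it was not (adjusted p = 0.0593). The difference was at least 29.8-fold against the floor of 3 counts per library, which does not cover the spread between replicates. It was at least 10.6-fold without EV shPCBP2 replicate 1 and at least 48.9-fold without replicate 2. In shCTR miR-23a-5p was at least 45.2-fold lower in EVs than in cells against the same floor (adjusted p = 0.00287 without the filter, edgeR's quasi-likelihood test). In shPCBP2 the log2 ratio of EVs to cells was -0.30 ± 1.1 (adjusted p = 0.82, same test), where scaling to the mouse miRNA total gave 4.86 in the other direction (adjusted p = 0.0373). In spike-in RPM its libraries separated upwards in EVs and downwards in cells, and opposite separations were seen in 4.44% of all tested miRNAs. The filter fixed the EV part in advance, so this share supports nothing. The call in EVs was also lost with the replicate number as a block (adjusted p = 0.103), in a fit of only the 4 EV libraries (0.268), and when either cell shCTR library, either cell shPCBP2 library or either EV shCTR library was left out, with an adjusted p of 0.0679 to 0.15, and miR-23a-5p was not among the miRNAs tested once either EV shPCBP2 library was left out.

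The EV libraries held few low counts of any miRNA. Of the 180 tested miRNAs, 18 to 27 had 0 counts in an EV library and only 2 to 6 had 1 to 30 counts, compared with 1 to 6 and 8 to 12 in a cell library. The 162 and 419 counts of miR-27b-5p, each beside 0 in the replicate, were thus read in libraries with few small counts. So were the 205 and 36 counts of miR-23a-5p in EV shPCBP2. The bearing of this on the passenger results was not tested. Minor arms as a whole, members included, were also patchy. Among the 28 minor arms for which the cell share gave at least 20 reads in every EV library, a group set after the values were seen, 5 had 0 counts in all 4 EV libraries, 17 in 1 to 3 of them, and 6 were read in all. The 28 include miR-27a-5p, among the 5, and miR-27b-5p, among the 17.

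**Figure D4:**
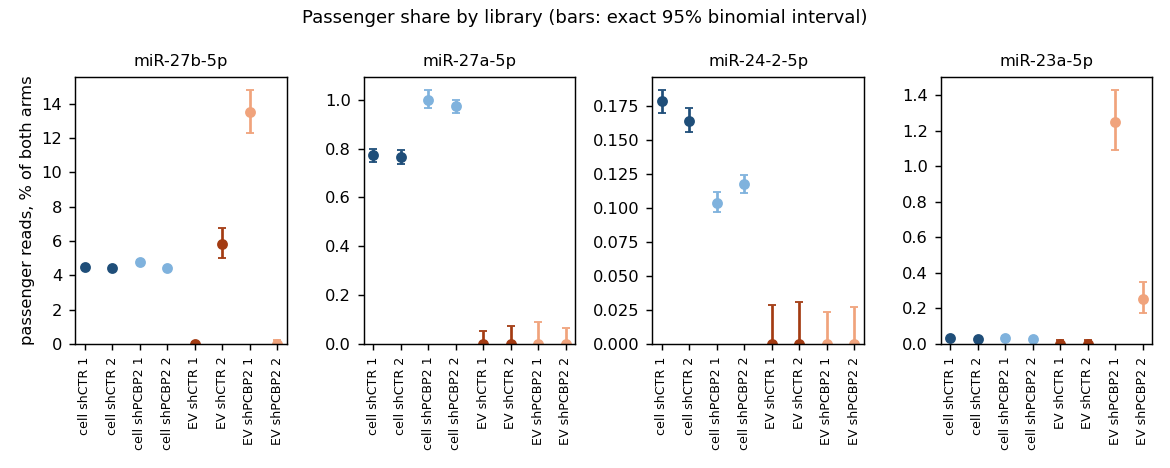
Passenger reads as a percentage of the reads of both arms in every library, with exact 95% binomial intervals that cover counting error only, and a separate axis for each arm. miR-27a-5p and miR-24-2-5p are at 0 in all EV libraries, whereas miR-27b-5p reaches 13.5% and miR-23a-5p 1.25% in EV shPCBP2 replicate 1.

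The other arms of these loci were rare. mmu-miR-23b-5p had 34 to 81 counts per cell library, mmu-miR-24-1-5p 2 to 65 and mmu-miR-3074-1-3p, which is annotated on the strand opposite to miR-24, 141 to 277. mmu-miR-3074-2-3p had 0 to 22 counts and mmu-miR-3074-5p none in cells. All 5 had 0 counts in the 4 EV libraries and were not tested.

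A pair of short strings was searched on the given strand of the mature sequences. AUUA or AUUG is the core of the motif that the study relates to retention in cells. GGCU was chosen here as 1 of the strings that the variable motif for export allows, which is a narrower search than the study made. AUUG is in miR-23a-3p from base 6 and in miR-27b-5p from base 13, and AUUA is in no member with a sequence. GGCU is in miR-27a-3p and miR-27b-3p from base 9, in miR-24-3p from base 2, where it overlaps the seed, and in miR-27a-5p from base 3. Neither string is in miR-23a-5p or miR-24-2-5p. The longer and variable forms of the motifs, by which the study assigns both to miR-23a-5p, were not searched. The study also has evidence on miR-23a-5p apart from these counts. It reports binding by PCBP2 and SYNCRIP after crosslinking and immunoprecipitation. By RT-qPCR it reports more loading into EVs after PCBP2 silencing for a group of miRNAs that includes miR-23a-5p. Among the guides with a sequence, the one with AUUG had the highest EV/cell ratio and the 3 with GGCU had lower ones. Of these 3, miR-27a-3p and miR-27b-3p differ by 1 base, and miR-23b-3p is left out. A relation of the ratio to the motifs was not tested. Of the 156 tested miRNAs with a sequence, 16.0% held AUUA or AUUG and 15.4% held GGCU. The median log2 EV/cell ratio in shCTR was -5.19 with AUUA or AUUG and -5.05 without, and -5.17 with GGCU and -5.0 without. A match in these letters describes the sequence and is not a binding site.

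Finally, the miRNAs with the most similar profile were sought among 108 other tested miRNAs with at least 10 counts in every library, by the root mean square difference of log2 shares of the mouse total over the 8 libraries after centring each miRNA. For miR-23a-3p these were let-7a-5p (0.13), miR-221-3p (0.16) and miR-17-5p (0.16), whose log2 EV/cell ratios in shCTR were -4.77, -4.80 and -5.05. For miR-24-3p they were miR-194-5p (0.18), miR-324-5p (0.24) and let-7b-5p (0.28), with log2 ratios of -6.84, -7.19 and -6.15. For miR-27a-3p they were miR-34a-5p (0.22), miR-181d-5p (0.27) and miR-324-5p (0.31), with log2 ratios of -7.10, -6.54 and -7.19.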

How the data were processed

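Small RNA libraries of 3A cells and their EVs were made by the authors with a NEXTFLEX small RNA kit. The authors trimmed reads with FastqToolkit 2.2.5, aligned the forward reads with mirPRo 1.1.4 and NovoAlign to miRBase 22.1 hairpins and the spike-in, and deposited raw counts per mature miRNA. The largest counts are printed to 6 significant digits. How reads shared by miRNAs were counted is not given in the sources used here.

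The members, lists and tests were chosen with earlier results of these data known. Named miRNAs are the members, the lists of other arms, clusters and cell type markers, and the 3 nearest profiles of 3 guides. Samples were grouped by title, and titles and descriptions number the shPCBP2 replicates differently. The study calls the replicates biological. PCBP2 itself was not measured.

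The deposited counts were tested with edgeR 4.0.16 in R 4.3.3 (glmQLFit and glmQLFTest over all 8 libraries, library size equal to the spike-in count, common dispersion 0.693, residual degrees of freedom 4, prior 2.10). Standard errors were taken from the F statistic, intervals used 6.10 degrees of freedom, and p-values were adjusted by Benjamini-Hochberg over 180 miRNAs. The script was tested on simulated data. DESeq2 1.42.0, other scalings (TMM, median of ratios, mouse total), other filters, blocks, subsets and omission of each library were alternatives. Ratios and shares used Python 3.11.15 with scipy 1.17.1.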

Additional observations from a re-analysis of the deposited data

Results flagged for a closer look

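mmu-miR-23a-5p met the criterion of opposite directions in EVs and cells. Both EV shPCBP2 libraries (205 and 36 counts) lay above both EV shCTR libraries (0 and 0), and both cell shPCBP2 libraries lay below both cell shCTR libraries (3.85 and 4.32 against 5.33 and 4.77 spike-in RPM, reads per 1000000 spike-in reads). Such opposite separation was seen in 4.44% of all tested miRNAs. With 0 counts in both EV shCTR libraries, miR-23a-5p could be tested only if both EV shPCBP2 libraries held reads. The EV part was thus fixed by the filter, and this share supports nothing. The cell part follows a general shift, since 66.7% of tested miRNAs lay lower in both cell shPCBP2 libraries on this scale and the median log2 change was -0.49, against -0.30 for this miRNA. As a percentage of mouse miRNA reads the cell libraries overlapped (0.000777 and 0.000609 against 0.000746 and 0.000641), and TMM and median of ratios turned the change in cells to 0.20 and 0.12. Silencing of PCBP2 went with an EV/cell ratio at least 36.8-fold that of shCTR against the floor of 3 counts per library, which does not cover the spread between replicates. The ratio was at least 13.1-fold without EV shPCBP2 replicate 1 and at least 60.4-fold without replicate 2. The test of this difference, the interaction term, was not called (adjusted p = 0.0917, and 0.129 without the filter on reads, edgeR's quasi-likelihood test), and this miRNA met that filter only through EV shPCBP2.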

How the results depend on the processing

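The EV/cell call and direction of miR-23b-3p, miR-24-3p, miR-27a-3p and miR-27b-3p held under every alternative run. miR-23a-3p relative to cells changed sign with the mouse total (0.10 in shCTR, 0.30 in shPCBP2) and lost its call as lower with TMM and median of ratios, and miR-23a-5p in shPCBP2 went to 4.17 with TMM, 4.38 with median of ratios and 4.86 with the mouse total. Members called lower in EVs than in cells in shPCBP2 numbered 3 with the a and b guides summed, which leaves fewer members to test. In that fit 106 of all 178 tested miRNAs were called lower. For the EV/cell change DESeq2 called 1 member. In that change the sign turned with the mouse total for miR-23a-3p (0.20), miR-23b-3p (0.071) and miR-24-3p (0.045), and for miR-23a-3p with median of ratios (3.22e-05), the replicate block (0.0042) and the block by culture (0.026). With 1 library left out it ran from -0.28 to 0.33 for miR-23a-3p, from -0.41 to 0.20 for miR-23b-3p and from -0.36 to 0.10 for miR-24-3p, positive without cell shPCBP2 replicate 2.

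Members called in EVs for shPCBP2 numbered 1 in the fit reported, 3 with TMM or DESeq2, 2 with median of ratios, 0 without a filter, with at least 10 counts in every library (where miR-23a-5p is not tested), with the replicate block or with only the 4 EV libraries, and 0 to 1 with 1 library left out (1, miR-23b-3p, without either cell shPCBP2 library). In EVs the sign turned for miR-23a-3p (0.023 with median of ratios, 0.10 with the mouse total) and miR-24-3p (0.17 with TMM, 0.28 with median of ratios, 0.36 with the mouse total), and miR-27b-5p ran from -0.16 to 1.84 with 1 library left out. In cells TMM and median of ratios turned miR-23a-3p (0.10 and 0.023), miR-23a-5p (0.20 and 0.12) and miR-27a-3p (0.37 and 0.29, and 0.17 with the mouse total), and TMM turned miR-27b-3p (0.031) and miR-27b-5p (0.079). With 1 library left out, miR-27a-3p in cells ran from -0.41 to 0.15 and miR-24-3p from -0.22 to 0.25. Apart from the scaling of miR-23a-3p and miR-23a-5p between EVs and cells, none of these sign changes concerned a called value, and the cause was not tested.

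Pairing libraries by number as a replicate block gave the same guide ratio differences (2.05 for miR-23 over miR-27, 1.68 for miR-23 over miR-24-3p, 2.2 for miR-23a-3p over miR-27a-3p, 1.84 for miR-23b-3p over miR-27b-3p, 0.70 for miR-23a-3p over miR-23b-3p), with an adjusted p of 0.146 in an exact sign-flip test that cannot go below 0.125 with 4 pairs. The numbers are those of the titles. The descriptions give cell shPCBP2 replicate 1 and EV shPCBP2 replicate 1 different numbers, so they do not bear out this pair. The sign-flip test and the block fits rest on it all the same. Correlations of deviations between libraries of the same title number ran from -0.12 to 0.21, which with 2 libraries per condition cannot settle whether the number pairs the libraries. With 1 library left out, the difference for miR-27 over miR-24-3p ran from -0.51 to -0.22 and was called without EV shCTR replicate 1 (adjusted p = 0.0333). Few mouse miRNA reads in EV libraries and 2 libraries per condition limit the results on passenger arms.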
